A study of Mus musculus with 6 samples.

Results

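The genes described here encode the antibodies of the mouse ileum and the machinery that carries them into the gut lumen. They are the probe sets whose platform gene symbol names a kappa, lambda or heavy chain variable, joining or constant segment of an immunoglobulin, together with those of Jchain and Pigr. A probe set is a group of short oligonucleotides on the array that reads 1 transcript or several related ones. The rule found 54 of the 45037 probe sets tested, and they carry 28 gene symbols. It used names only and no measured value. By segment class there were 3 probe sets of Igha, 1 of Jchain, 2 of Pigr, 11 of Ighm, 4 of Ighg3 and 1 of the heavy variable segment Ighv14-2. A further 21 named kappa variable segments, 4 named lambda segments, and 4 heavy and 3 kappa probe sets carried symbols of more than 1 class. No probe set carried a symbol of Ighd or Ighe, the heavy chains of IgD and IgE.

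Antibodies of the intestinal wall are made by plasma cells of the lamina propria, and most of them are IgA. The J chain links IgA monomers (and IgM monomers) into polymers, and the polymeric immunoglobulin receptor, encoded by Pigr, binds these polymers at the basal side of epithelial cells, carries them across the cell and releases them as secretory IgA. Each B cell clone joins 1 heavy and 1 light variable segment to its constant region, so the transcripts of single variable segments follow which clones a tissue holds, while those of constant regions follow all clones of an isotype.

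RNA came from the mucosa of the terminal ileum of female 129S6 mice aged 3 months. The duoxa-/- mice lack the maturation factors that the dual oxidases need to reach the cell surface and release hydrogen peroxide, and the wt mice were littermates housed with them. Every one of 3 cages held 1 litter and gave 1 wt and 1 duoxa-/- pool; a pool combined the RNA of 2 to 3 animals and was hybridised to 1 array, so there were 6 arrays. The comparison asks how expression differs between genotypes that share a cage. Both groups share the strain, sex and age, the deletion was not limited to a cell type in the labels, and the animals within a pool cannot be read apart.

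The array values are on a log2 scale, where 1 unit is a doubling. Array medians lay between 6.55 and 6.60, and pairs of arrays had r of 0.994 to 0.998 over all probe sets. Duoxa2, which encodes the maturation factor of DUOX2, read 8.81, 8.36 and 7.24 in the wt pools of cages 1, 2 and 3, and 5.90, 5.55 and 5.92 in the duoxa-/- pools, with no overlap. The difference, duoxa-/- minus wt, was -2.34, with a limma adjusted p of 0.794. At an adjusted p threshold of 0.05 even Duoxa2 thus did not pass. The sources used here do not say whether its probe set lies inside the deletion. The wt pool of cage 1 stood apart in its tissue markers. Averaged over 11 smooth muscle genes it was 0.42 higher than the average array, and over 19 plasma cell genes 0.26 lower. Beside the larger differences stands the value without a pool or cage that moves them by more than 1.5-fold. In mucosal RNA, fewer cells of a type and less RNA per cell cannot be told apart.

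For Pigr and Jchain, the transport pair of the set, RefSeq holds promoter sequences (assembly GRCm38.p6). They are the 2 of the 28 symbols that matched the promoter table, and they show what letters precede genes that are strongly read in every pool. The 250 bases before each gene's start are printed 5′ to 3′ on the gene's strand, with E-boxes (CANNTG, the letter pattern that basic helix-loop-helix factors bind) in capitals. The Pigr stretch lies on the plus strand at chr1:130826434-130826683 and the Jchain stretch on the minus strand at chr5:88527898-88528147.
Pigr: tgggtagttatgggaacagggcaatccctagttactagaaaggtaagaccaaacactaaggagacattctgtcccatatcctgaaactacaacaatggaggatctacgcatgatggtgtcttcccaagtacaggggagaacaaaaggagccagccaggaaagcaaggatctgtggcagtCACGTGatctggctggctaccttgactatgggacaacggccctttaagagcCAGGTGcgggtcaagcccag
Jchain: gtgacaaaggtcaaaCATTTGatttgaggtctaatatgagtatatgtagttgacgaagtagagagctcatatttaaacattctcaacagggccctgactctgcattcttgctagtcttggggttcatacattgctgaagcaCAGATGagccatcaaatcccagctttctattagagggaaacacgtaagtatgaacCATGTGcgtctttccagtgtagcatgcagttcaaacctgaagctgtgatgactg
The Pigr stretch held 2 E-boxes, CACGTG at positions -71 to -66 and CAGGTG at -20 to -15 from the gene's start. The Jchain stretch held 3, CATTTG at -235 to -230, CAGATG at -109 to -104 and CATGTG at -54 to -49. Of 32851 promoter stretches of the same length, 66.2% held an E-box. The immunoglobulin octamer (ATTTGCAT or its reverse ATGCAAAT), the PU box (GAGGAA or TTCCTC) and the interferon-type GAS letters (TTCNNNGAA) were searched on both strands as well. They had 0 matches in both stretches, against 1.6%, 23.3% and 7.02% of all promoters, and no motif overlapped another. A match is a description of letters, and no match says only that these letters are not in this window.

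The IgA genes were read at nearly the same level in both genotypes. Igha encodes the constant region of the alpha heavy chain, and its probe set 1421653_a_at read 14.68, 14.80 and 14.76 in the wt pools of cages 1, 2 and 3 and 14.78, 14.70 and 14.74 in the duoxa-/- pools. The groups overlapped, and all 6 pools lay within 0.13 of each other. The difference, duoxa-/- minus wt, was -0.0057 (95% interval -0.18 to 0.17; limma adjusted p = 0.991). The other Igha probe sets, 1425763_x_at and 1429381_x_at, differed by -0.0032 (interval -0.18 to 0.17) and -0.00021 (-0.18 to 0.18). All 3 were slightly higher in the duoxa-/- pool of cage 1 and slightly lower in those of cages 2 and 3. Their values lay between 14.44 and 14.80, near the highest value of any probe set on these arrays, 14.99 to 15.59 depending on the array. Whether signals this high compress a difference was not tested.

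Jchain and Pigr behaved alike across the pools. Jchain (1424305_at) read 13.98, 14.14 and 14.10 in wt pools and 14.16, 14.07 and 14.03 in duoxa-/- pools. The lowest value was the wt pool of cage 1 and the highest the duoxa-/- pool of the same cage, with the other 4 pools between them. The difference was 0.02 ± 0.08 (SE), with a 95% interval of -0.18 to 0.21 and a limma adjusted p of 0.978. Pigr probe set 1450060_at read 13.99, 14.18 and 14.12 in wt pools and 14.15, 14.19 and 14.06 in duoxa-/- pools, a difference of 0.04 (interval -0.15 to 0.23). Its other probe set, 1455490_at, read 14.11, 14.27 and 14.17 against 14.27, 14.22 and 14.11, a difference of 0.01 (interval -0.18 to 0.21). For both Pigr probe sets the wt pool of cage 1 was at the low end, the groups overlapped, and limma adjusted p was 0.933 and 0.979. The 95% intervals of these 6 probe sets lay between -0.18 and 0.23. Differences inside them remain compatible with the values of 3 pools a group. The intervals are not the limit of the adjusted test, where Duoxa2, at -2.34, did not pass either.

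**Figure D1:**
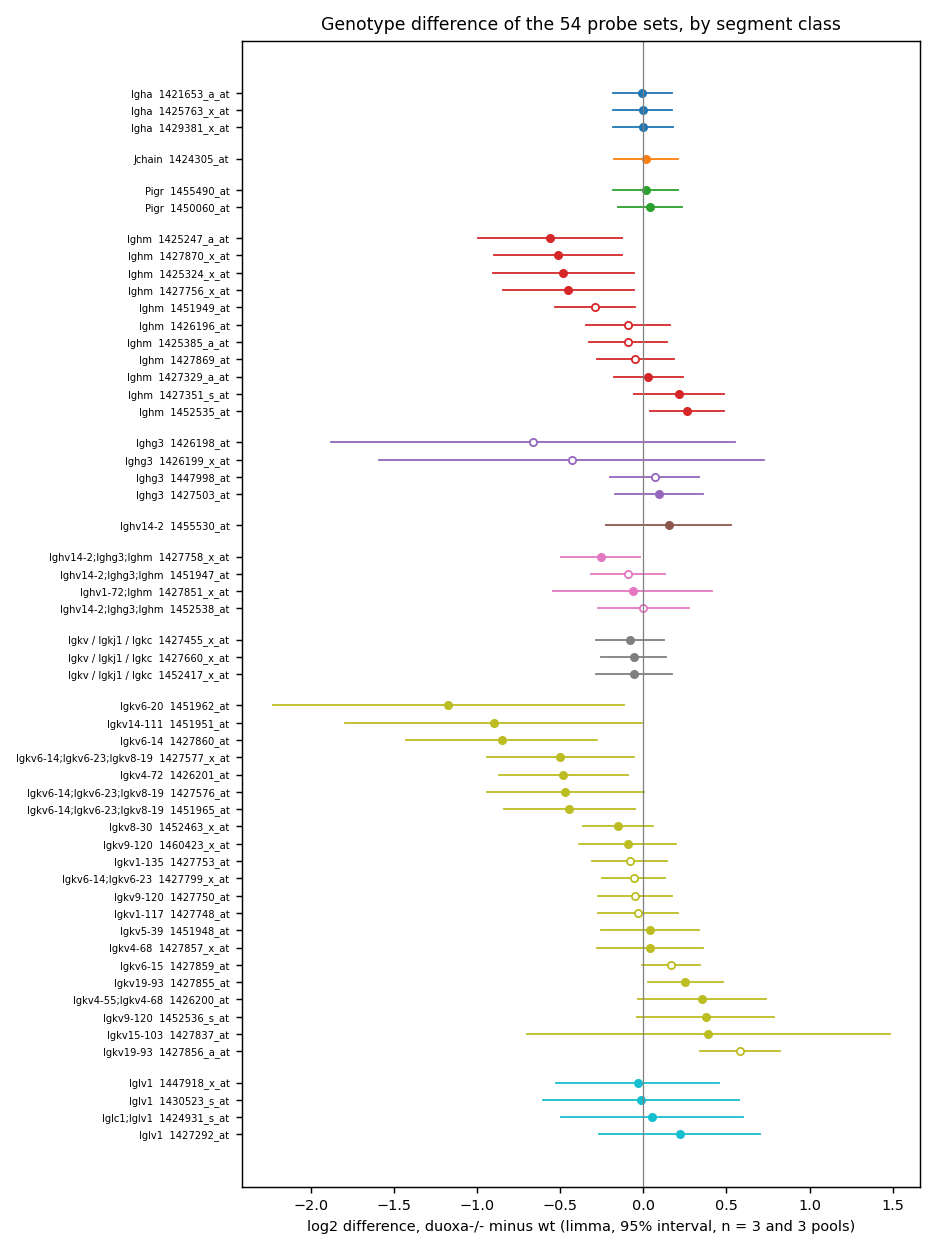
Genotype difference of each of the 54 probe sets, grouped by segment class. The horizontal axis is the log2 difference, duoxa-/- minus wt, points are limma estimates over 3 and 3 pools and lines are 95% intervals; open points are probe sets below the median level of all values (6.58) in both groups. Igha, Jchain and Pigr sit at 0 with short intervals, 4 filled Ighm probe sets lie between -0.56 and -0.45, and kappa variable probe sets run from -1.17 to 0.58.

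Over all 54 probe sets, 0 passed the test between genotypes. With limma, 0 of them had an adjusted p under 0.05 (0.0% of all 45037 probe sets), and the same count of 0 (0.0%) held with cage as a block. Before adjustment, 12 (22.2%) were lower in duoxa-/- pools at a p under 0.05, where 2.63% of all probe sets were, and 3 (5.56%) were higher, where 3.35% of all were. With the cage block 18 of the 54 had an unadjusted p under 0.05, against 6.6% of all probe sets. Of the 12, 6 named kappa variable segments, 5 named Ighm and 1 named Ighv14-2, Ighg3 and Ighm together. The 54 do not count as 54 separate readings, since several probe sets share a gene, related segments share sequence, and 21 have the suffix _x_at or _s_at that marks probes matching more than 1 transcript. The median difference was -0.05 over the 54, with 34 lower and 20 higher, beside 0.0013 over all probe sets.

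The same count was taken within cages. In 13 of the 54 the duoxa-/- pool was lower than the wt pool in all 3 cages, where 14.3% of all probe sets were, and in 6 it was higher in all 3, where 15.3% were. All duoxa-/- pools lay below all wt pools for 5 of the 54 (5.36% of all probe sets) and above them for 4 (6.25%). The members' shares, 9.26% and 7.41%, are near those backgrounds. A difference of at least 1.5-fold was rarer: 4 of the 54 were that much lower (0.0688% of all) and 0 that much higher (0.122%). These 4 were Igkv6-20, Igkv14-111, Igkv6-14 and an Ighg3 probe set. Igha, Jchain, Pigr and the lambda probe sets contributed to none of these counts.

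Ighm encodes the mu heavy chain, the constant part of IgM, and its probe sets did not read alike. Of the 11, 7 reached the median level of all values, and 4 of these 7 were lower in the duoxa-/- pools of cages 2 and 3 and nearly level in cage 1. Probe set 1427870_x_at read 11.05, 11.10 and 11.14 in wt pools and 10.96, 10.19 and 10.60 in duoxa-/- pools. Every duoxa-/- pool lay below every wt pool, by a narrow margin in cage 1. The difference was -0.51 ± 0.17 (SE; 95% interval -0.90 to -0.13; limma adjusted p = 0.794). It was -0.32 without the duoxa-/- pool of cage 2.

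Probe set 1425247_a_at read 10.04, 10.32 and 10.42 in wt pools and 10.10, 9.30 and 9.70 in duoxa-/- pools. Here the duoxa-/- pool of cage 1 lay among the wt pools and the other duoxa-/- pools lay below all of them. The difference was -0.56 ± 0.19 (SE; interval -0.996 to -0.13; limma adjusted p = 0.794), and -0.36 without the duoxa-/- pool of cage 2. The probe sets 1425324_x_at and 1427756_x_at had the same order of pools, with differences of -0.48 and -0.45, both with limma adjusted p of 0.794. Without cage 3 these became -0.29 and -0.26. These 4 Ighm probe sets read 1 gene, so they are not separate lines of evidence.

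The other 3 of the 7 did not have a lower mean in duoxa-/- pools. Probe set 1427351_s_at read 11.18, 11.43 and 11.53 in wt pools and 11.74, 11.63 and 11.41 in duoxa-/- pools, a difference of 0.21 (interval -0.06 to 0.49) that was 0.04 without cage 1. Probe set 1427329_a_at differed by 0.03 (interval -0.18 to 0.24). Within cage 3 both differed the other way, by -0.12 and -0.15. For 1452535_at the values were 9.70, 9.93 and 9.98 in wt pools and 10.20, 10.08 and 10.12 in duoxa-/- pools, so that every duoxa-/- pool lay above every wt pool, with a difference of 0.26 ± 0.10 (SE; limma adjusted p = 0.794) that was 0.14 without cage 1. The probe sets of Ighm therefore disagree in direction, and the sources used here do not state which part of the transcript each one matches. Over all 11 the median difference was -0.09, and 0.09, -0.32 and -0.32 within cages 1, 2 and 3. The 4 dim Ighm probe sets read between 4.71 and 5.68; 1 of them, 1451949_at, was lower in every duoxa-/- pool than in any wt pool, by 0.29 on the log2 scale.

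**Figure D2:**
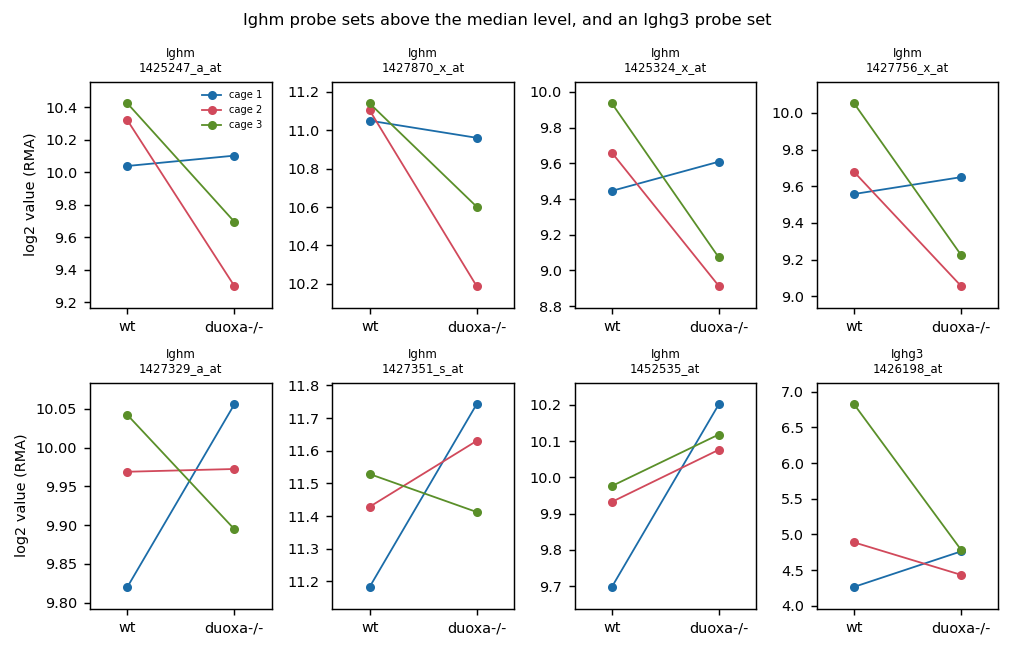
Values of the 7 Ighm probe sets above the median level and of Ighg3 probe set 1426198_at. Each panel plots the log2 value (vertical axis, own scale) in the wt and the duoxa-/- pool, and lines join the pools of a cage. In the top row the lines of cages 2 and 3 go down while cage 1 stays nearly level, and the first 3 panels of the bottom row have mean differences of 0.03, 0.21 and 0.26; the Ighg3 panel is set by 1 wt pool at 6.82.

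Ighg3, the constant region of IgG3, was mostly dim. Probe set 1426198_at read 4.27, 4.89 and 6.82 in wt pools and 4.76, 4.43 and 4.79 in duoxa-/- pools. The wt pool of cage 3 stood alone, about 2 units above the others. The difference of -0.66 ± 0.53 (SE; 95% interval -1.88 to 0.55; limma adjusted p = 0.824) became 0.08 without that pool. Probe set 1426199_x_at had the same single high pool, at 7.16 against 4.72 to 5.58 in the other 5 arrays, and its difference of -0.43 became 0.27 without it. The Ighg3 probe set above the median level, 1427503_at, read 8.64, 8.33 and 8.59 in wt pools and 8.44, 8.64 and 8.76 in duoxa-/- pools. These overlapped, with a difference of 0.10 (interval -0.17 to 0.36), and the dim 1447998_at differed by 0.07.

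Heavy chain variable segments were sparsely covered, with 2 symbols on the array among 120 heavy variable segments of the RefSeq table. Ighv14-2 (1455530_at) read 8.35, 8.84 and 8.88 in wt pools and 9.10, 8.80 and 8.62 in duoxa-/- pools. Cage 1 gave both the lowest and the highest value, and the difference of 0.15 (interval -0.23 to 0.53) became -0.15 without cage 1. The probe set named for Ighv14-2, Ighg3 and Ighm together, 1427758_x_at, read 6.85, 6.93 and 7.17 against 6.73, 6.62 and 6.82. All duoxa-/- pools lay below all wt pools there, by -0.26 ± 0.10 (SE; limma adjusted p = 0.794), and by -0.16 without the wt pool of cage 3. The probe set named for Ighv1-72 and Ighm, 1427851_x_at, differed by -0.06 (interval -0.54 to 0.41), and the 2 dim mixed probe sets differed by -0.09 and 0.00035.

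The kappa constant region is the part of the light chain shared by all kappa antibodies, and its 3 probe sets also carry the joining segment Igkj1 and variable segments among their symbols. Probe set 1427455_x_at read 14.54, 14.58 and 14.40 in wt pools and 14.54, 14.40 and 14.35 in duoxa-/- pools. The groups overlapped, and the difference was -0.08 (interval -0.29 to 0.12; limma adjusted p = 0.864). The other kappa probe sets of this kind, 1427660_x_at and 1452417_x_at, both differed by -0.06, with intervals of -0.25 to 0.13 and -0.29 to 0.17. As with Igha, all of their values were high, between 13.93 and 14.58.

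Single kappa variable segments spread much more widely. These segments encode the antigen-binding part of kappa light chains, and the array named 17 of the 102 kappa variable segments of the RefSeq table. The 21 probe sets of this class had a median difference of -0.06, with 13 lower and 8 higher, and their range over the 6 arrays had a median of 0.80, beside 0.34 for all probe sets. The lowest difference belonged to Igkv6-20 (1451962_at), which read 8.02, 10.01 and 7.97 in wt pools and 7.36, 7.59 and 7.53 in duoxa-/- pools. All duoxa-/- pools lay below all wt pools, and the wt pool of cage 2 stood about 2 units above the rest. The difference was -1.17 ± 0.46 (SE; 95% interval -2.23 to -0.12), or 2.26-fold lower, with a limma adjusted p of 0.794. Without that pool it was -0.50.

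Igkv14-111 (1451951_at) shared the high wt pool of cage 2. It read 9.48, 10.65 and 8.78 in wt pools and 8.65, 9.04 and 8.53 in duoxa-/- pools, so the groups overlapped although the duoxa-/- pool was lower within every cage. The difference of -0.90 ± 0.39 (SE; interval -1.79 to -0.0055; limma adjusted p = 0.794) was -0.39 without the wt pool of cage 2. In cages 1, 2 and 3 it was -0.83, -1.61 and -0.26.

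Igkv6-14 (1427860_at) was lower by a more even margin across pools. Its values were 11.54, 11.51 and 10.58 in wt pools and 10.68, 10.18 and 10.20 in duoxa-/- pools. Both wt pools of cages 1 and 2 lay above all duoxa-/- pools, while the wt pool of cage 3 lay below the duoxa-/- pool of cage 1. The difference was -0.85 ± 0.25 (SE; interval -1.43 to -0.28; limma adjusted p = 0.794), or 1.81-fold lower, and lay between -1.17 and -0.62 when single pools or cages were left out. The 3 probe sets named for Igkv6-14, Igkv6-23 and Igkv8-19 together differed by -0.50 (1427577_x_at), -0.47 (1427576_at) and -0.45 (1451965_at), each lower in the duoxa-/- pool of every cage. The first was -0.33 without the wt pool of cage 2, and the others were -0.30 and -0.23 without cage 2. They share Igkv6-14 with the probe set above and are not separate readings. A grouping chosen after the values were seen took the 7 probe sets of the kappa variable class with an Igkv6 symbol. Their median difference was -0.47, and -0.37, -0.81 and -0.27 within cages 1, 2 and 3, and 6 of the 7 were lower. The 3 kappa probe sets with symbols of more than 1 class also name Igkv6-23 but were left out of the grouping. They differed by -0.08, -0.06 and -0.06.

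Outside the Igkv6 group, Igkv4-72 (1426201_at) read 9.43, 9.27 and 9.99 in wt pools and 9.21, 8.99 and 9.05 in duoxa-/- pools. All duoxa-/- pools lay below all wt pools, with the wt pool of cage 3 the highest. The difference of -0.48 ± 0.17 (SE; limma adjusted p = 0.794) was -0.27 without that pool. Igkv8-30 (1452463_x_at) differed by -0.15 and Igkv9-120 probe set 1460423_x_at by -0.09.

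**Figure D3:**
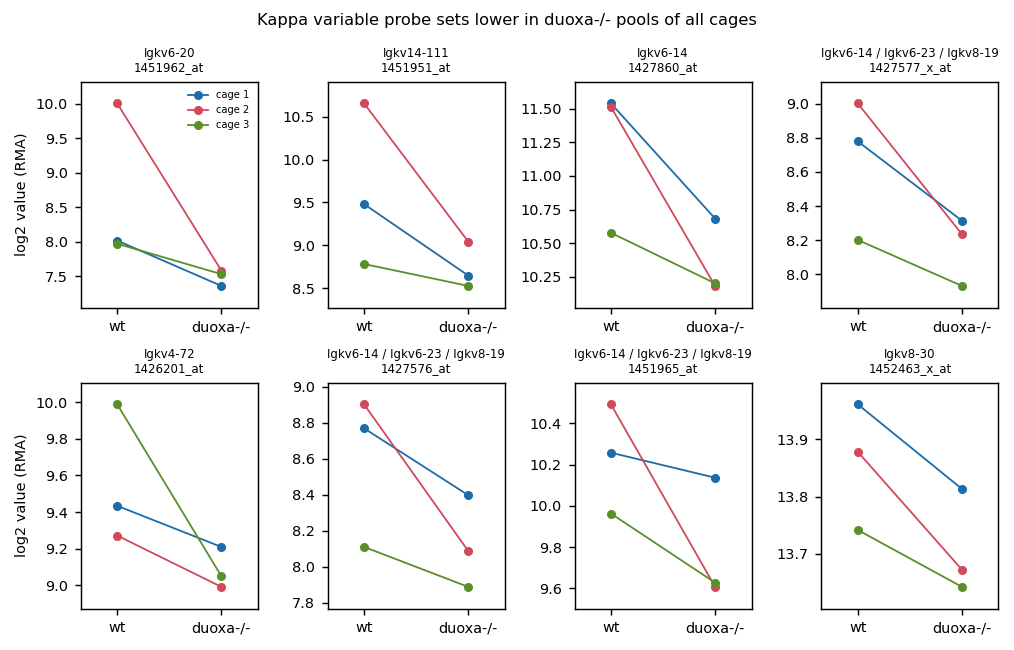
The 8 kappa variable probe sets whose duoxa-/- pool was lower in every cage. Each panel plots the log2 value (vertical axis, own scale) in the wt and the duoxa-/- pool, with a line for each cage. Every line goes down, and for Igkv6-20 and Igkv14-111 the wt pool of cage 2, at 10.01 and 10.65, sets much of the difference.

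Other kappa variable segments were higher in duoxa-/- pools. Igkv15-103 (1427837_at) read 9.17, 10.10 and 8.52 in wt pools and 9.44, 10.65 and 8.87 in duoxa-/- pools. The duoxa-/- pool was higher in each cage, by 0.28, 0.55 and 0.35, yet cages differed by more than genotypes. The difference of 0.39 ± 0.48 (SE; limma adjusted p = 0.877) had an unadjusted p of 0.437 in the limma fit without cage and 0.00405 with the cage block, where its adjusted p was 0.740. Without the duoxa-/- pool of cage 2 the difference was -0.11. That fit had no cage term and kept the wt pool of cage 2, at 10.10, without its partner. Igkv9-120 probe set 1452536_s_at differed by 0.37 and the probe set of Igkv4-55 and Igkv4-68 by 0.35, both with limma adjusted p of 0.794. The former was 0.22 without the wt pool of cage 3, and the latter 0.16 when the duoxa-/- pool of cage 1 was left out and 0.12 when both its pools were. The probe sets 1452536_s_at and 1460423_x_at of Igkv9-120 thus differed in direction.

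Igkv19-93 gave the member with the smallest p, at a low level. Its probe set 1427856_a_at read 4.53, 4.49 and 4.51 in wt pools and 5.30, 5.06 and 4.91 in duoxa-/- pools. The wt pools lay within 0.04 of each other and all duoxa-/- pools lay above them, with a difference of 0.58 ± 0.11 (SE; interval 0.34 to 0.82; limma adjusted p = 0.794). Both group means are below 6.58, the median of all values. The brighter Igkv19-93 probe set, 1427855_at, read 6.71, 6.44 and 6.69 against 6.93, 6.88 and 6.78, again with no overlap, and differed by 0.25 (interval 0.03 to 0.48), or 0.17 without the wt pool of cage 2 and 0.16 without cage 2. Igkv5-39 and Igkv4-68 (1427857_x_at) each differed by 0.04. The other dim kappa probe sets, of Igkv1-117, Igkv1-135, Igkv6-15, Igkv9-120 and of Igkv6-14 with Igkv6-23, read between 3.76 and 5.86 and differed by -0.08 to 0.16.

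Lambda light chains, the rarer light chain type of the mouse, gave no common direction. The probe set of Iglc1 and Iglv1 (1424931_s_at) read 10.99, 11.65 and 10.67 in wt pools and 11.24, 11.42 and 10.81 in duoxa-/- pools. Pools of a cage lay close together and cage 3 was lowest in both genotypes. The difference was 0.05 (interval -0.50 to 0.60; limma adjusted p = 0.972). The Iglv1 probe sets 1430523_s_at, 1447918_x_at and 1427292_at differed by -0.01, -0.03 and 0.22, with limma adjusted p between 0.850 and 0.994.

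Cages were then compared with genotype in the fit. Among the 54, 0 passed limma's moderated F-test between cages at an adjusted p under 0.05, where 1 of 45037 probe sets did (0.00222%), and 9 had an unadjusted p under 0.05, against 5.55% of all. These 9 were 7 kappa variable and 2 lambda probe sets. For 3 of the 54 the pools of the cages did not overlap, a share near the 6.16% of all probe sets. The 3 were Igkv15-103 and the lambda probe sets 1424931_s_at and 1430523_s_at.

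Igkv15-103 had the smallest p of the 54 between cages, with cage means of 9.31, 10.37 and 8.69 and a limma adjusted p of 0.0694. It passed in 4 alternative fits, with adjusted p of 0.0276 with array weights, 0.00725 with a trend and robust prior, 0.0271 on median-centred arrays and 0.0433 with 1 probe set per gene. Iglv1 (1430523_s_at) had cage means of 11.27, 11.51 and 10.66 and a limma adjusted p of 0.406, and the Iglc1 and Iglv1 probe set had means of 11.12, 11.53 and 10.74 and an adjusted p of 0.638. All of these were highest in cage 2 and lowest in cage 3. The next smallest values belonged to Igkv14-111, 1427577_x_at, 1427576_at, Igkv6-14 (1427860_at), Igkv9-120 (1452536_s_at), Igkv5-39 and Igkv6-20, with adjusted p of 0.877 to 0.886. For the transport genes and Igha the smallest limma adjusted p between cages was 0.979 for Igha, 0.989 for Jchain and 0.939 for Pigr.

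**Figure D4:**
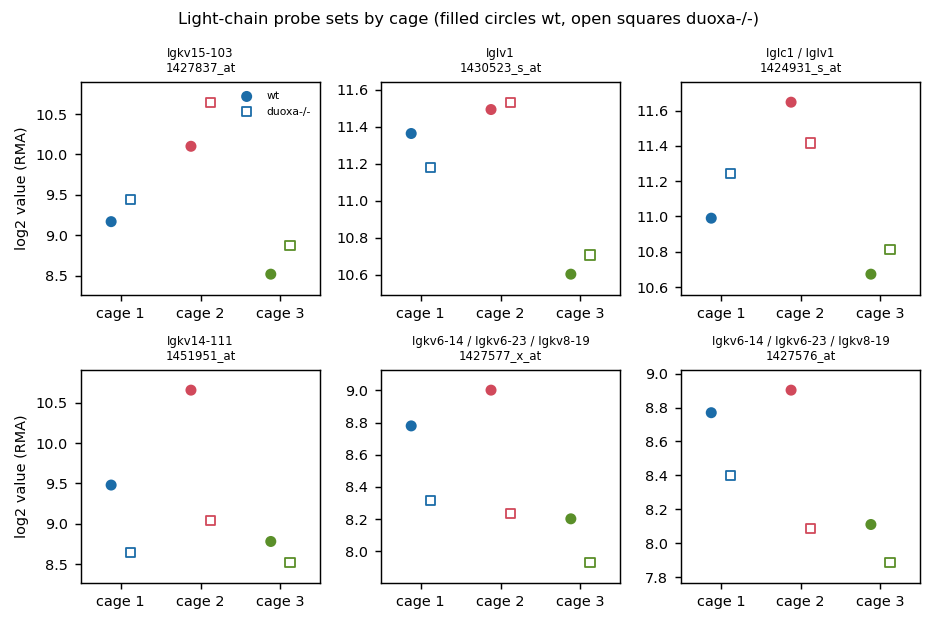
The 6 probe sets with the smallest p between cages. Each panel plots the log2 value (vertical axis, own scale) by cage, with filled circles for wt pools and open squares for duoxa-/- pools. In the top row both pools of a cage lie together and cage 3 is lowest; in the bottom row the wt pool lies above the duoxa-/- pool in every cage.

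Genes of antibody-producing cells were read beside these values. Of 19 plasma cell genes measured, 0 passed the limma test, 17 were higher and 2 lower in duoxa-/- pools, with a median difference of 0.09. Within cages the median was 0.51, -0.09 and -0.07. Mzb1, an endoplasmic reticulum protein of antibody assembly, read 10.58, 11.30 and 11.17 in wt pools and 11.48, 11.22 and 11.06 in duoxa-/- pools. The wt pool of cage 1 was the low one, as it was for Jchain, and the other 5 pools lay between 11.06 and 11.48. Spcs2 of the signal peptidase differed by 0.19, Creld2 by 0.32 and Edem1, of endoplasmic reticulum degradation, by 0.12, with limma adjusted p of 0.794 to 0.804. Sdc1, the surface marker of plasma cells, lay between 11.0 and 11.5 in all pools. The part of the plasma cell level in the immunoglobulin values was not tested.

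B cell and germinal centre genes ran the same way in cage 1. Of 18 B cell genes, 15 were higher and 3 lower, with medians of 0.52, 0.01 and -0.06 in cages 1, 2 and 3 and 0 passing. Ms4a1, which encodes CD20, read 10.19, 10.57 and 10.89 in wt pools and 11.10, 10.85 and 10.80 in duoxa-/- pools, with only the wt pools of cages 1 and 2 below all duoxa-/- pools. Cd37 differed by 0.32, the complement receptor gene Cr2 by 0.29 and Fcrla by 0.53, each with a limma adjusted p of 0.794. Within cages 1, 2 and 3 Fcrla differed by 1.22, 0.07 and 0.30. Of 12 germinal centre genes 9 were higher, and Mybl1 (0.42), Polh (0.22) and Tbc1d4 (0.19) had the smallest p, again 0 passing. Not all B cell genes ran this way. Cd79a, a signalling partner of the B cell receptor, was lower in the duoxa-/- pool of every cage (-0.10, -0.24 and -0.29), as was Cd74, the invariant chain of antigen presentation (-0.29, -0.81 and -0.50), both without passing (limma adjusted p of 0.796 and 0.794).

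T cell and smooth muscle markers also moved with single pools, and mast cell markers were lowest in both pools of cage 3. Of 10 T cell genes 8 were lower, with cage medians of 0.52, -0.40 and -0.25, and the wt pool of cage 2 was 0.31 higher in them than the average array. That pool was also the highest in the kappa variable (0.30) and lambda (0.37) averages and in Igkv6-20 and Igkv14-111. All 11 smooth muscle genes had a lower mean in duoxa-/- pools, with 0 passing the limma test (adjusted p of at least 0.794), and cage medians of -0.69, 0.20 and -0.09; Des, the desmin gene, read 11.75 in the wt pool of cage 1 and 10.63 to 11.15 elsewhere. Cd3e differed by -0.10. Mast cell genes, of which 2 of 6 reached the median level of all values, were the list with the lowest median. All 6 were lower, 4 of them in every cage, with a median of -0.38, cage medians of -0.72, -0.50 and -0.08 and 0 passing. Their level was 0.92 above the average array in the wt pool of cage 2, the pool that was high in Igkv6-20 and Igkv14-111, and -0.65 and -0.71 relative to it in the wt and duoxa-/- pools of cage 3. Of 10 enterocyte genes 9 were lower (median -0.08), of 8 myeloid genes 2 (median 0.06) and of 6 follicle stroma and M cell genes 2 (median 0.04), with 0 passing. The 7 epithelial genes had a median difference of -0.0040 and levels within 0.03 of their mean in every pool. The part of these shifts in the immunoglobulin values was not tested.

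**Figure D5:**
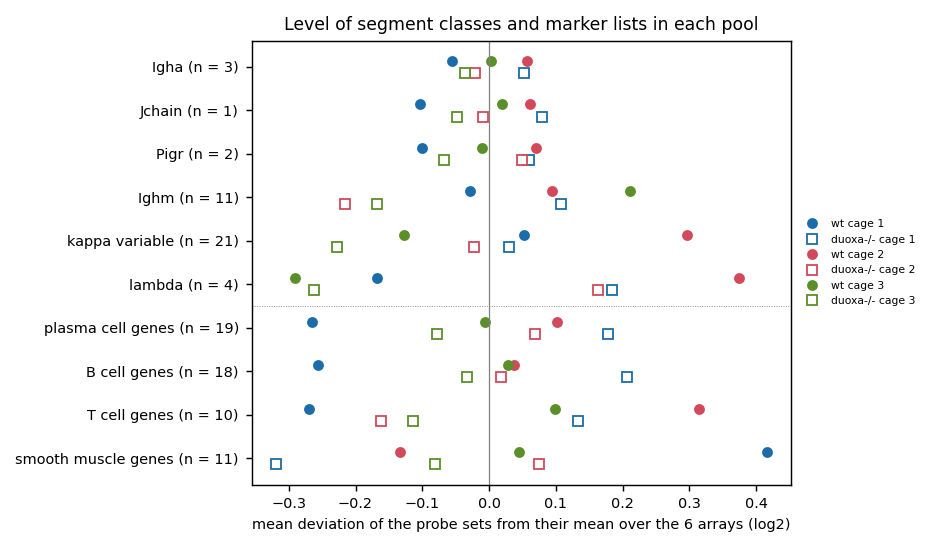
Average level of segment classes (above the dotted line) and of marker lists (below it) in each pool. The horizontal axis is the mean deviation (log2) of the probe sets from their own mean over the 6 arrays, with filled circles for wt and open squares for duoxa-/- pools, coloured by cage. Igha, Jchain and Pigr stay within 0.11 of 0, kappa variable and lambda classes are highest in the wt pool of cage 2, and plasma and B cell genes are lowest in the wt pool of cage 1.

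The signals that direct IgA were described by the same counts, and 0 genes of any list below passed. Of 20 genes for switching to IgA, 9 were higher and 11 lower (median -0.02). Tgfb1, the cytokine that starts switching to IgA, read 6.83, 6.44 and 5.96 in wt pools and 6.17, 5.82 and 6.06 in duoxa-/- pools, which overlapped, with a difference of -0.39 ± 0.20 (SE; limma adjusted p = 0.794). Both group means of Tgfb1, 6.41 in wt and 6.02 in duoxa-/- pools, lay below 6.58, the median of all values. The Tgfb1 receptor gene Tgfbr2 differed by 0.19 and the lymphotoxin gene Ltb by 0.33. Of 11 homing genes 5 were higher and 6 lower (median -0.0072). Among them Ccl28, a mucosal chemokine for IgA plasma cells, differed by 0.19, the integrin gene Itgb7 by -0.21 and Cxcr4 by -0.16.

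Regulators of Pigr and of its vesicle traffic leaned slightly low. Of 19 genes 5 were higher and 14 lower, with a median difference of -0.05 and cage medians of -0.03, -0.03 and -0.04. Stat6, which acts downstream of interleukin-4, differed by -0.27, and the adaptor Ticam1 by -0.19. Il17a, a cytokine known to raise Pigr, read 6.64, 7.99 and 7.07 in wt pools and 7.77, 7.99 and 7.28 in duoxa-/- pools, a difference of 0.45 ± 0.31 (SE; limma adjusted p = 0.810). The pools of Il17a overlapped, and the wt pool of cage 1 was again the lowest.

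Among receptors for antibodies 5 of 11 were higher and 6 lower (median -0.0051). Fcmr, the IgM receptor, differed by 0.24, and Fcgrt, the neonatal Fc receptor that carries IgG, by -0.23. Fcer1a differed by -0.32. Limma adjusted p was 0.794 to 0.810 for all of these. Fcer1a was dim in all pools, at 3.83 to 4.84. Of 6 V(D)J recombination genes 1 was higher and 5 were lower (median -0.03), and 2 of the 6 reached the median level of all values. Igll1 differed by -0.09, Rag2 by -0.05 and Vpreb3 by 0.08.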

How the data were processed

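Per the labels, total RNA was purified with TRIzol and spin columns and labelled with biotin for single-colour Affymetrix arrays. The submitters' processing notes name RMA and affy, without versions, for the deposited values, which are log2 summaries per probe set. RMA compresses differences of dim probe sets. No detection calls were used, so dim means a level below the median.

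Of 45101 rows, 64 controls were left out. Symbols came from GEO's platform annotation, and all 28 stand in the RefSeq table of GRCm38.p6. A further 5 probe sets named Igk or Igk-V21 fell outside the rule.

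All 45037 probe sets were fitted with limma 3.58.1 (R 4.3.3) by lmFit and eBayes without a cage term, with two-sided p values adjusted by Benjamini-Hochberg over all of them and a threshold of 0.05. Cages were compared by a moderated F-test, genotype being kept in that model. Fits were tested on simulated data. Differences are duoxa-/- minus wt. Their p values set them against the spread between pools of a genotype. Without a cage term that spread includes differences between cages. A list gene was read by its brightest probe set; 15 lists held 192 entries, 174 of them measured. Tables and figures used Python 3.11.15, pandas 2.3.3 and matplotlib 3.10.9.

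The segment classes, lists and rules were chosen with earlier results of these data known. Named are all probe sets of constant, joining and lambda segments, Jchain and Pigr; of variable segments, the 8 with the largest difference in each direction above the median level; the 10 with the smallest p between cages; up to 3 genes of each pathway list with the smallest p; and Sdc1, Ms4a1, Cd3e and Des. Mzb1, Cd79a, Cd74, the dim variable probe sets and the Igkv6 group were picked after seeing values.

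Because a cage was a litter in the design text, the cage numbers pair the pools; across probe sets the residuals of paired pools had r of -0.15, 0.07 and 0.29 in cages 1, 2 and 3. Alternatives were a replicate block, array weights, another prior, 2 scalings, filters on dim, cross-matching or multiply named probe sets, 1 probe set per gene, and leaving out each pool or cage.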

Additional observations from a re-analysis of the deposited data

How the results depend on the processing

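With the replicate block, 0 of the 54 probe sets passed, 13 were lower and 5 higher at an unadjusted p under 0.05 (3.00% and 3.60% of all probe sets), against 12 and 3 without it, and the paired fit changed no call. In every alternative run, 0 of the 54 passed between genotypes. Over all probe sets the count was 0, and 0 to 1 when single pools or cages were left out, the 1 without the wt pool of cage 3.

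The count of 12 lower was 3 with 1 probe set per gene (20 of the 54 remain; 3.66% of all), and 2 to 10 when pools or cages were left out: 2 without the duoxa-/- pool of cage 2 (1.57% of all), 4 without cage 2 (1.71%), 5 without the duoxa-/- pool of cage 3 (2.93%), 6 without cage 3 (3.68%) and 7 without the wt pool of cage 2 (3.00%). The share over all probe sets ran from 1.43% without cage 1 to 4.49% without the wt pool of cage 3, where 10 and 9 were lower. The count of 3 higher was 1 with 1 probe set per gene (1.87% of all) and 1 to 5 with pools or cages left out (1.65% to 5.01% of all). Between cages, 1 of the 54 (Igkv15-103) passed with array weights, the trend and robust prior, median-centred arrays and 1 probe set per gene. Over all probe sets, where 1 passed, these gave 3, 9, 3 and 2, and 0 passed with only 1-symbol probe sets or with no genotype term.

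Class medians moved as follows. Ighm was -0.45 with dim probe sets left out and 0.21 with 1 probe set per gene, kappa variable -0.15 with dim ones left out, and the Igkv6 group -0.85 with only 1-symbol probe sets and with 1 per gene. With pools or cages left out, mixed kappa ranged from -0.14 to -0.027 and lambda from -0.19 to 0.26. Without _x_at and _s_at probe sets the lambda level was -0.68 in the wt pool of cage 1 and 0.18 in that of cage 3. With 1 probe set per gene, the Ighm value is that of 1427351_s_at alone. Both Igkv6 values are medians over the probe sets of Igkv6-14, Igkv6-15 and Igkv6-20. Without _x_at and _s_at probe sets, the lambda level is that of 1427292_at alone. The cause of the other shifts was not tested, beyond the fewer probe sets each filter leaves.

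Signs turned for differences near 0 and for some further from it. The latter include Ighg3 1426198_at (-0.66) and 1426199_x_at (-0.43) and Igkv15-103 (0.39). Scaling and weights gave 0.0016 (quantile) for Igha 1421653_a_at, 0.0036 (weights) for 1425763_x_at, 0.0085 (weights) and 0.017 (quantile) for 1429381_x_at, -0.0016 (quantile) for Pigr 1455490_at, and 0.087 and 0.070 (weights) for Iglv1 1430523_s_at and 1447918_x_at. Leaving out pools or cages gave -0.060 to 0.041 for Igha 1421653_a_at, -0.057 to 0.031 for 1425763_x_at, -0.058 to 0.031 for 1429381_x_at, -0.069 to 0.057 for Jchain, -0.020 to 0.086 for Pigr 1450060_at and -0.058 to 0.060 for 1455490_at. Heavy chain ranges were -0.072 to 0.12 for Ighm 1427329_a_at, -1.25 to 0.084, -1.08 to 0.29 and -0.0097 to 0.24 for Ighg3 1426198_at, 1426199_x_at and 1427503_at, -0.15 to 0.36 for Ighv14-2 and -0.30 to 0.20 for Ighv1-72 with Ighm. Light chain ranges were -0.11 to 0.81 for Igkv15-103, -0.12 to 0.18 for Igkv4-68, -0.057 to 0.17 for Igkv5-39, -0.20 to 0.091 for Igkv9-120 1460423_x_at, -0.16 to 0.33 for Iglc1 with Iglv1, and -0.13 to 0.44, -0.29 to 0.20 and -0.26 to 0.26 for Iglv1 1427292_at, 1430523_s_at and 1447918_x_at. Those of Cxcr4, Ccl28, Rag2 and Vpreb3 were -0.27 to 0.014, -0.011 to 0.36, -0.091 to 0.0015 and -0.18 to 0.25. With 3 pools a group, a median SE of 0.0993 and dim probe sets compressed by RMA, small differences were not detectable.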
